A study of Homo sapiens with 6 samples.

Results

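The mature miRNAs numbered miR-6715 to miR-6895 are late entries of the human miRNA registry, and most members lie in introns. The count tables list 354 of them, and the members were chosen by their raw counts, as the 142 whose sum over all 6 libraries reached at least 10. The tables list 2588 mature miRNAs in all. The members hold 72 miRNAs of the 5p arm and 70 of the 3p arm, from 110 hairpins, and 32 of these hairpins have both arms among the members. The choice rests on measured counts, so the level of the members as a group is a description and not a result. Of the other entries in this range, 90 had a count but summed to less than 10, and 122 were at 0 in every library. The 10 members at the threshold held a summed count of 10, of which 68 counts in all came from total RNA and 32 from m7G-RIP. The 10 entries just outside it held a summed count of 9, with 58 counts in all from total RNA and 32 from m7G-RIP.

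A mirtron is a miRNA hairpin that is cut out of its host transcript by the spliceosome instead of by DROSHA. After debranching, the short intron folds into a hairpin that DICER can cleave, so its ends are the ends of an intron. In tailed mirtrons only one end of the hairpin coincides with a splice site, and the surplus bases on the other side are trimmed. Mammalian mirtrons typically pair a G-rich 5p arm with a 3p arm made mainly of C and U, which carries the polypyrimidine tract and the AG of the splice acceptor. They are usually scarce in cells, and many have been reported only by deep sequencing of small RNAs.

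The study used m7G-RIP-seq, immunoprecipitation of RNA with an antibody against N7-methylguanosine (m7G) followed by small RNA sequencing, to find miRNAs that carry this modified guanosine. The cells were A549, a human lung adenocarcinoma line, infected with a doxycycline-inducible shRNA against METTL1, an RNA methyltransferase that makes m7G. There were 2 groups of 3 libraries each, total RNA (the input) and m7G-RIP. Per the labels, doxycycline was given at 200 ng/ml and total RNA was taken on day 5, while the labels of the m7G-RIP libraries name the same knockdown but state no dose or day. The culture text of the m7G-RIP libraries describes medium for another line, Caco-2, and they were taken as A549 after their titles and cell line labels. Every library came from knockdown cells, so the comparison asks which miRNAs the antibody recovered over input and holds no contrast for METTL1. METTL1 itself is not a miRNA and was not measured here, and libraries of METTL1-proficient cells or of a control antibody were not analysed here.

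Total RNA libraries held between 9155690 and 10753443 counts and m7G-RIP libraries between 2649238 and 3106556. Levels are given as CPM, counts scaled to a common library size by the trimmed mean of M-values (TMM). At the mean depth of a group, 3 counts were worth 0.363 CPM for total RNA and 0.876 CPM for m7G-RIP. Marker miRNAs of blood summed to at most 1.57 CPM and the liver marker miR-122-5p was at 0 throughout. Epithelial markers summed to between 21735 and 22333 CPM in total RNA and between 3177 and 3516 CPM in m7G-RIP, and most of this was miR-192-5p. The narrower epithelial marker miR-200c-3p had between 80.1 and 93.3 CPM and between 71.6 and 113 CPM, while miR-141-3p and miR-205-5p were at most 2.51 CPM. Of the same list, miR-194-5p had between 421 and 554 CPM in total RNA and between 69.1 and 112 CPM in m7G-RIP. miR-375 went the other way, with between 106 and 111 CPM in total RNA and between 159 and 224 CPM in m7G-RIP. The muscle markers miR-1-3p, miR-133a-3p and miR-206 summed to between 9.07 and 11.8 CPM in total RNA and varied from 0.535 to 117 CPM among m7G-RIP libraries. The nerve markers miR-124-3p and miR-9-5p summed to between 495 and 609 CPM in total RNA and between 93.7 and 130.0 CPM in m7G-RIP. Nearly all of this was miR-9-5p, while miR-124-3p was at most 2.37 CPM in any library. Replicates are numbered samples that the labels do not tie to separate cultures, so p-values measure the spread between these samples, which may be technical.

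Mature sequences from RefSeq (GRCh38.p14) were matched for 58 of the 72 members of the 5p arm and 63 of the 70 members of the 3p arm. The members enriched in m7G-RIP are shown first, since the comparison turns on them, with the seed (bases 2 to 8) in capitals. Those of the 5p arm were:
miR-6734-5p: uUGAGGGGagaaugagguggaga
miR-6741-5p: gUGGGUGCuggugggagccgug
miR-6805-5p: uAGGGGGCggcuuguggagugu
miR-6763-5p: cUGGGGAGuggcuggggag
miR-6724-5p: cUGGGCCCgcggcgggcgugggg
Those of the 3p arm were:
miR-6786-3p: uGACGCCCcuucugauucugccu
miR-6812-3p: cCGCUCUUccccugaccccag
No sequence was matched for the enriched members miR-6747-3p and miR-6843-3p, which are given by name. The same holds for miR-6723-5p and miR-6842-3p, which are named below and were not enriched in the main test.

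Hairpins with both arms among the members show how unlike the arms of a single precursor are, and the following were those with the highest counts in their lesser arm. The 5p arms of miR-6741 and miR-6805 are printed above.
miR-6741-3p: uCGGCUCUcucccucacccuag
miR-6805-3p: uUGCUCUGcucccccgcccccag
miR-6777-5p: aCGGGGAGucaggcaguggugga
miR-6777-3p: uCCACUCUccuggcccccag
miR-6797-5p: aGGAGGGAaggggcugagaacagga
miR-6797-3p: uGCAUGACccuucccuccccac
miR-6851-5p: aGGAGGUGguacuaggggccagc
miR-6851-3p: uGGCCCUUuguaccccuccag
miR-6894-5p: aGGAGGAUggagagcugggccaga
miR-6894-3p: uUGCCUGCccucuuccuccag

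The members hardly shared seeds. Among the 121 with a sequence, 3 pairs had the same bases 2 to 8, and no seed was found in more than 2 members. Each pair joined members of the same arm from different hairpins, and they are shown because the seed is the main part of a miRNA that pairs with targets. The first pairs with miR-6777-5p, printed above.
miR-6889-5p: uCGGGGAGucugggguccggaau
miR-6779-5p: cUGGGAGGggcuggguuuggc
miR-6780a-5p: uUGGGAGGgaagacagcuggaga
miR-6862-3p: cCUCACCCagcucucuggcccucu
miR-6784-3p: uCUCACCCcaacucugccccag

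The arms differed in base content as the printed examples show. The median share of G was 50% in 5p members, with a range from 25.0% to 65.0%, against 30.4% in the 317 other 5p miRNAs that summed to at least 10 counts and had a sequence. In 3p members the median share of G was 13.6%, against 22.7% in the 327 other 3p miRNAs. The median share of C and U together was 75.0% in 3p members and 34.1% in 5p members, against 54.5% in other 3p and 47.6% in other 5p miRNAs. A run of GGGG was present in 29 of 58 5p members and in 0 of 63 3p members, and in 13.6% of all 982 miRNAs with a sequence.

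**Figure D1:**
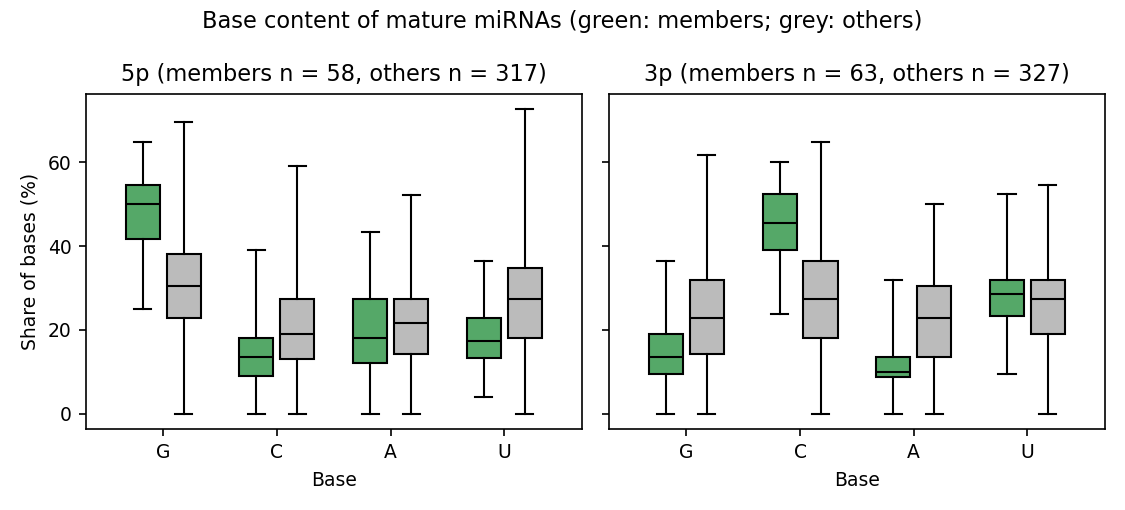
Share of each base (%, vertical axis) in mature miRNAs of the 5p arm (left) and 3p arm (right), members in green and other miRNAs with a summed count of at least 10 in grey. Boxes span the quartiles with the median as a line, and whiskers reach the lowest and highest value. G was the leading base of 5p members (median 50%) and C of 3p members (median 45.5%).

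The label "intronic" held for nearly all hairpins. In the GENCODE release 44 annotation of GRCh38, 104 of the 110 hairpins lay within an intron of some transcript on the same strand. An exon of another transcript could overlap these as well. Of the rest, 3 overlapped an exon, 1 lay outside genes and 2 were not matched by name. For other miRNAs with a summed count of at least 10, 71.1% of 653 matched hairpins lay within an intron. The 3′ end of the mature 3p miRNA was the last base of an annotated intron for 48 of 63 members, against 23 of 327 other 3p miRNAs, and 49 of the 63 ended in AG. The 5′ end of the mature 5p miRNA was the first base of an intron for only 5 of 58 members, against 7 of 317 other 5p miRNAs. The members thus touched an annotated splice site mostly at the acceptor side.

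The member with the highest counts had another genomic setting. miR-6724-5p, with a summed count of 2092, is annotated at 4 loci on chromosome 21, and RefSeq places 3 of these loci at 582, 582 and 601 bases before the start of a gene for the 45S pre-ribosomal RNA (RNA45SN2, RNA45SN3 and RNA45SN1). One of them, MIR6724-1, lies at chr21:8205315-8205406 (GRCh38). No 3p miRNA of this hairpin was a member. Reads could not be assigned to a single locus. The member with the next highest summed count, miR-6747-3p with 693, comes from an intron of EEF1G (chr11:62567011-62567071, minus strand), the gene of a translation elongation factor subunit. The median summed count of the members was 24.0, and 16 of 142 exceeded 100.

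The first question was how much of each arm was recovered by the antibody. Summed over all 5p members, levels were 97.0, 97.1 and 124 CPM in total RNA against 314, 221 and 313 CPM in m7G-RIP replicates 1, 2 and 3. All m7G-RIP libraries lay above all total RNA libraries, with means of 282 ± 53.2 CPM and 106 ± 15.3 CPM (SD, n = 3), a ratio of 2.67. The 3p members summed to 78.8, 78.0 and 95.7 CPM in total RNA against 159, 175 and 185 CPM in m7G-RIP, again without overlap, at means of 84.2 ± 10.0 CPM and 173 ± 13.2 CPM (SD, n = 3) and a ratio of 2.06. Other miRNAs in the members' range of summed counts had ratios of 0.989 for the 5p arm and 0.877 for the 3p arm. That range reaches up to the 2092 counts of miR-6724-5p. It held 259 other 5p miRNAs with 2337 CPM in total RNA and 273 other 3p miRNAs with 2368 CPM. These were more abundant than the members and not matched to them in level. How much RNA the antibody recovered in absolute terms was not known, so ratios are set against the rest of the miRNAs in each library.

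A single miRNA made up a large part of each sum. miR-6724-5p held between 29.3% and 37.2% of the 5p counts in total RNA and between 28.4% and 59.0% in m7G-RIP. Without it, the 5p members summed to 71.9 ± 13.0 CPM in total RNA against 162 ± 35.4 CPM in m7G-RIP (SD, n = 3), and the groups did not overlap. miR-6747-3p held between 6.88% and 12.4% of the 3p counts in total RNA and between 19.5% and 45.6% in m7G-RIP. Without it, the 3p members summed to between 71.2 and 83.9 CPM in total RNA and between 86.6 and 149 CPM in m7G-RIP.

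**Figure D2:**
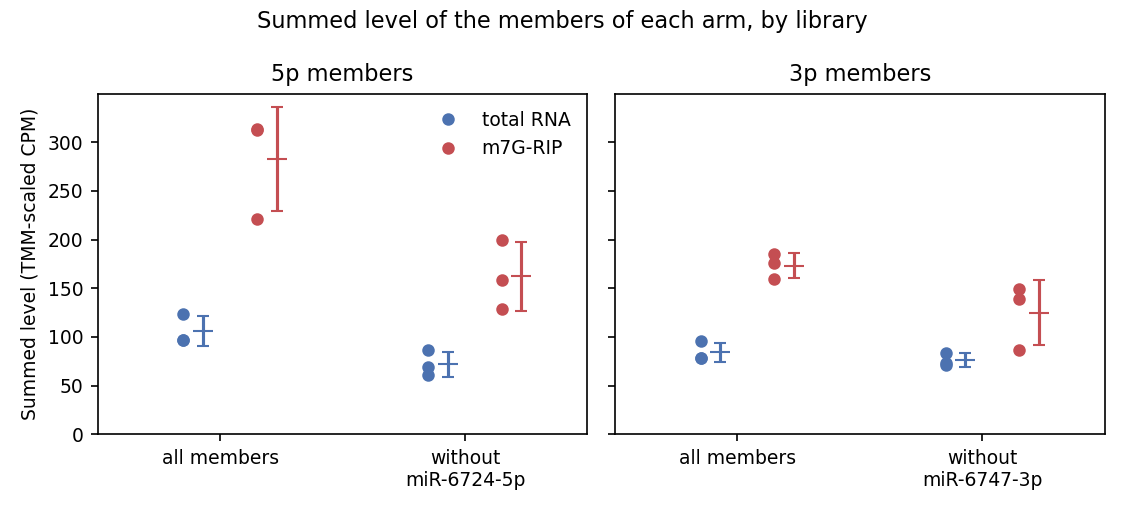
Summed level of the members (TMM-scaled CPM, vertical axis) of the 5p arm (left) and 3p arm (right) in each library, for all members and without the most abundant one, with means and SD beside the points. The m7G-RIP libraries lie above the total RNA libraries in every panel position, with the smallest gap for 3p members without miR-6747-3p (86.6 CPM against 83.9 CPM).

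Although the sums were higher in m7G-RIP, fewer members were seen there. Between 93 and 106 members had a count in a total RNA library and between 59 and 80 in an m7G-RIP library. Depth differed between the groups in the same direction. Thinned by calculation to the smallest library's total, total RNA libraries would be expected to show 33.1, 36.1 and 39.7 5p members, against 35, 33.0 and 43.7 in m7G-RIP. For the 3p arm the expected numbers were 38.5, 38.1 and 41.0 in total RNA and 24.0, 33.0 and 35.8 in m7G-RIP. At equal total counts the groups overlapped for 5p members and did not overlap for 3p members, whose expected numbers were lower in m7G-RIP. The same held at equal TMM effective size, a calculation added after seeing the data, with 36.8, 40.4 and 43.7 against 34.7, 33.0 and 43.7 5p members and 42.3, 42.4 and 46.1 against 23.8, 33.0 and 35.8 3p members. No test was made of these numbers. Membership rests on raw counts, and total RNA was deeper, which favours members seen there. Among other miRNAs in the members' range of summed counts, values without a count were also more frequent in m7G-RIP. Without thinning, these were 13.9% of 5p values in total RNA and 35.6% in m7G-RIP. For the 3p arm they were 10.1% and 36.4%. Expected numbers at equal depth are not given here for other miRNAs. The lower 3p numbers may thus not be particular to members.

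Counts of the members were patchy in m7G-RIP. Of 426 values there, 221 were 0, 34 lay between 1 and 4 and 171 were 5 or more. Total RNA, at a higher depth, had 132 values of 0, 106 between 1 and 4 and 188 of 5 or more. In m7G-RIP 54 members had counts in a single library, and for 26 of these that library held at least 10 counts. Among other miRNAs with a summed count of up to 100, 55.5% of m7G-RIP values were 0 and 12.5% lay between 1 and 4, against 57.7% and 8.73% for members in the same range. The m7G-RIP level of those 54 members rested on 1 library each.

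No m7G-RIP library had a count for 9 of 72 members of the 5p arm and 16 of 70 of the 3p arm. No total RNA library had a count for 10 members of the 5p arm and 1 of the 3p arm. Among other miRNAs in the members' range of summed counts, 36 of 259 (5p) and 47 of 273 (3p) had none in m7G-RIP. In total RNA 10 and 8 of these other miRNAs had none. Against a floor of 3 counts per library, the mean level of miR-6859-5p was at least 3.55-fold lower in m7G-RIP, with 24, 16 and 36 counts in total RNA and 0 in every m7G-RIP library. The miR-6859 hairpin has 4 annotated copies. In the other direction the mean level of miR-6857-5p was at least 6.86-fold higher in m7G-RIP, where it had 19, 0 and 7 counts. The m7G-RIP library at 0 gives no such bound by itself. Of the 10 members of the 5p arm at 0 in total RNA, 7 had counts in a single m7G-RIP library. These members lie outside the rule for named miRNAs and were picked after their values were seen.

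The second question was which single members differed between the groups beyond the spread of the replicates. Only 25 members, 13 of the 5p arm and 12 of the 3p arm, passed the expression filter of edgeR, which asked for about 1.63 unscaled CPM in 3 libraries. Of these, 8 reached that level in all 6 libraries, 9 reached it in every m7G-RIP library and in no total RNA library, and 0 did so in the other direction. Members that passed through m7G-RIP alone had to lie higher there, so counts and medians over the tested members describe them without supporting a direction for the members as a whole. In edgeR's quasi-likelihood test with Benjamini-Hochberg adjustment over all 620 miRNAs tested, 5 of 13 5p members and 4 of 12 3p members were enriched in m7G-RIP. Among all miRNAs tested 23.5% were enriched and 29.2% were depleted. Of the 9 enriched members, 6 had reached the filter level in m7G-RIP alone, while of the 8 members at that level in all 6 libraries 2 were enriched, miR-6724-5p and miR-6747-3p. The 6 were miR-6734-5p, miR-6763-5p, miR-6805-5p, miR-6786-3p, miR-6812-3p and miR-6843-3p, and their ratios and p-values are those of members admitted by the group in which they were high. The same holds for miR-6741-5p, which reached the level in 3 m7G-RIP libraries and only 1 total RNA library. It could not have passed without m7G-RIP. No member was depleted with edgeR or with DESeq2, and none had a lower level at an unadjusted p under 0.05.

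The number of enriched members changed when a library was left out, and so did the number tested. Each such fit also has fewer libraries, so a lower number does not by itself point at the library left out. Without replicate 1, 2 or 3 of total RNA, 2 of 19, 3 of 19 and 2 of 18 tested members of the 5p arm were enriched. Without replicate 1, 2 or 3 of m7G-RIP, 7 of 30, 6 of 29 and 4 of 25 were. For the 3p arm, 2, 3 and 2 of 13 tested members were enriched without replicate 1, 2 or 3 of total RNA. Without replicate 1, 2 or 3 of m7G-RIP, 6 of 23, 2 of 24 and 2 of 20 were. The share enriched among all miRNAs in these fits is not given here. Leaving out an m7G-RIP library let the filter pass members with empty libraries, and then 3, 3 and 2 members of the 5p arm were depleted without replicate 1, 2 and 3, among them miR-6859-5p and miR-6827-5p each time, with miR-6866-5p without replicate 1 and miR-6852-5p without replicate 2. Without replicate 2 of m7G-RIP, 3 members of the 3p arm were depleted as well (miR-6783-3p, miR-6720-3p and miR-6842-3p). These depleted members were named after their values were seen, except miR-6720-3p and miR-6842-3p.

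Among the tested 5p members, the largest ratio was that of miR-6734-5p, from an intron of ELOVL1 (chr1:43364648-43364715, minus strand), which encodes a fatty acid elongase. It had 2, 0 and 0 counts in total RNA and 9, 32 and 28 counts in m7G-RIP, where its levels were 2.65, 10.0 and 7.49 CPM. The fitted log2 ratio was 6.08 ± 1.27 (SE, with an adjusted p of 0.00334 in edgeR), a value that depends on very few total RNA counts. From the counts alone the ratio was 83.2, with an exact 95% interval from 22.2 to 701 that covers counting error only. It was enriched whichever library was left out, and the log2 ratio was 8.10 without replicate 1 of total RNA, which held its only counts there.

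miR-6741-5p had levels of 0.226, 2.61 and 0.263 CPM in total RNA against 4.71, 20.4 and 7.49 CPM in m7G-RIP. The groups did not overlap, and replicate 2 was the highest library of each group. Its log2 ratio was 3.36 ± 1.12 (SE, with an adjusted p of 0.0304 in edgeR), but adjusted p rose to 0.0874 without replicate 1 and 0.0997 without replicate 3 of total RNA and to 0.136 without replicate 2 of m7G-RIP. Without replicate 2 of total RNA the log2 ratio was 5.28, and without replicate 2 of m7G-RIP it was 2.38. miR-6805-5p, from an intron of the ribosomal protein gene RPL28 (chr19:55388181-55388242, plus strand), had 1.24, 0.951 and 1.45 CPM in total RNA against 9.13, 4.08 and 10.7 CPM in m7G-RIP. Its total RNA libraries lay close together, and the log2 ratio was 2.70 ± 0.76 (SE, with an adjusted p of 0.0149 in edgeR). Its adjusted p was between 0.0553 and 0.0839 without replicate 1, 2 or 3 of total RNA and without replicate 3 of m7G-RIP, and 0.0979 in edgeR with no filter.

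miR-6763-5p, from an intron of FBRSL1 (chr12:132581997-132582061, plus strand), was the scarcest of the enriched members in m7G-RIP. It had 3, 4 and 1 counts in total RNA and 7, 6 and 9 counts in m7G-RIP, with a log2 ratio of 2.66 ± 0.89 (SE, with an adjusted p of 0.0299 in edgeR). Without m7G-RIP replicate 1, 2 or 3 the adjusted p was 0.104, 0.0844 and 0.142, with DESeq2 it was 0.0894, and with no filter it was 0.374 in edgeR. miR-6724-5p, by contrast, was the most abundant. Its levels were 28.4, 36.1 and 37.3 CPM in total RNA against 185, 62.8 and 113 CPM in m7G-RIP, which varied among themselves but lay above all total RNA libraries. Its log2 ratio was 1.83 ± 0.36 (SE, with an adjusted p of 0.0026 in edgeR), and it was enriched under every alternative tried, with a log2 ratio of 1.19 without replicate 1 of m7G-RIP.

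Among the 3p members, miR-6747-3p had the most counts. Its levels were 5.42, 6.78 and 11.8 CPM in total RNA against 72.5, 36.7 and 36.1 CPM in m7G-RIP, without overlap. The log2 ratio was 2.60 ± 0.43 (SE, with an adjusted p of 0.000939 in edgeR), and it too was enriched under every alternative tried, with a log2 ratio of 1.97 without replicate 1 of m7G-RIP. miR-6812-3p, from an intron of PIGT (chr20:45425510-45425573, plus strand), a gene of glycosylphosphatidylinositol anchor attachment, had 0.339, 1.78 and 1.58 CPM in total RNA against 4.42, 15.1 and 12.8 CPM in m7G-RIP. Replicate 1 was the lowest library of each group, and the log2 ratio was 3.11 ± 0.88 (SE, with an adjusted p of 0.0158 in edgeR). Its adjusted p was 0.0513 without replicate 1 of total RNA and 0.0526 without replicate 2 of m7G-RIP.

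miR-6786-3p, from an intron of HGS (chr17:81693757-81693869, plus strand), a gene of endosomal sorting, had 7, 0 and 2 counts in total RNA and 14, 13 and 27 counts in m7G-RIP. Its levels of 4.12, 4.08 and 7.23 CPM in m7G-RIP lay above a highest total RNA value of 0.790 CPM, with a log2 ratio of 3.78 ± 1.14 (SE, with an adjusted p of 0.0205 in edgeR). The adjusted p was 0.0912 and 0.107 without replicates 2 and 3 of total RNA and 0.0833 without replicate 3 of m7G-RIP, and with no filter it was 0.0705 in edgeR. The log2 ratio was 5.09 without replicate 1 of total RNA. miR-6843-3p had 1.58, 1.90 and 0.131 CPM in total RNA against 3.53, 10.4 and 12.0 CPM in m7G-RIP, with a log2 ratio of 2.81 ± 0.99 (SE, with an adjusted p of 0.0382 in edgeR). Its call was lost without any replicate of total RNA and without replicate 2 or 3 of m7G-RIP, at adjusted p between 0.0658 and 0.123, and with no filter it was 0.08 in edgeR. The log2 ratio was 2.19 without replicate 3 of total RNA.

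**Figure D3:**
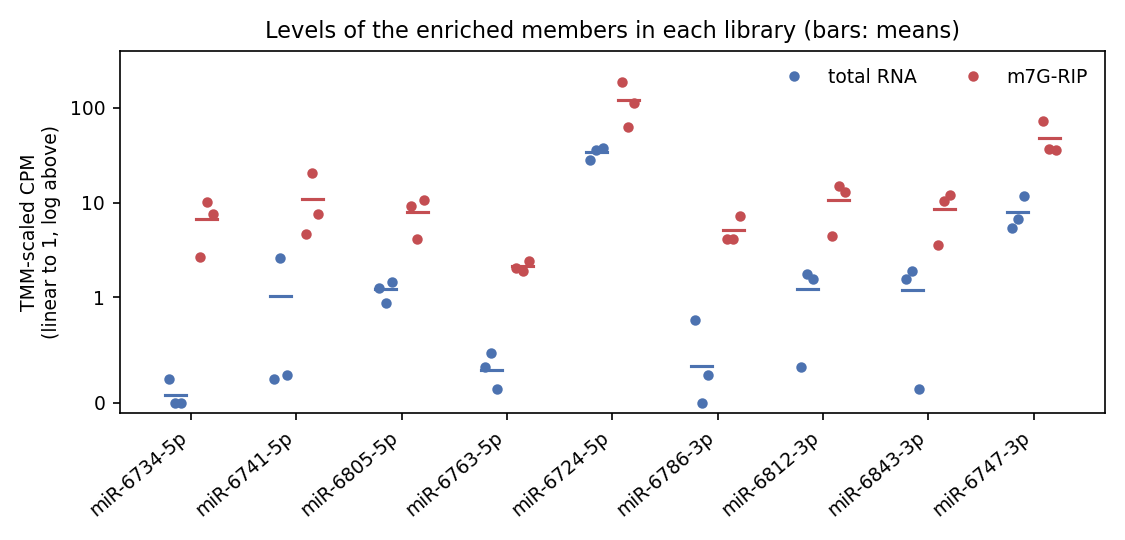
Levels of the 9 enriched members (TMM-scaled CPM, vertical axis, linear up to 1 and logarithmic above) in each total RNA and m7G-RIP library, with a bar at each mean. In every case the 3 m7G-RIP points lie above the 3 total RNA points, from 2.12 ± 0.267 CPM (SD, n = 3) for miR-6763-5p to 120 ± 61.4 CPM for miR-6724-5p in m7G-RIP.

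The other members abundant in total RNA did not pass the test. miR-6720-3p, the most abundant 3p member there and the one from the hairpin outside genes (chr6:1390314-1390411, minus strand), had 15.0, 13.4 and 14.6 CPM in total RNA against 5.30, 11.3 and 8.30 CPM in m7G-RIP (log2 ratio -0.79 ± 0.45 SE, with an adjusted p of 0.175 in edgeR). miR-6842-3p had 9.93, 12.4 and 12.9 CPM in total RNA against 2.95, 8.79 and 3.21 CPM in m7G-RIP, at a log2 ratio of -1.24 ± 0.61 (SE, with an adjusted p of 0.115 in edgeR). In both, every m7G-RIP library lay below every total RNA library. Without m7G-RIP replicate 2 the adjusted p was 0.0491 for miR-6720-3p and 0.0129 for miR-6842-3p.

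miR-6840-5p, from an intron of PILRB (chr7:100356651-100356721, plus strand), had 10.7, 6.54 and 9.47 CPM in total RNA against 10.0, 3.77 and 2.94 CPM in m7G-RIP. It is poor in G for a 5p member, at 25.0%, the lowest share among those with a sequence. miR-6723-5p, which was not matched to the annotation, had 16.2, 9.98 and 9.73 CPM in total RNA against 12.7, 14.1 and 31.6 CPM in m7G-RIP. miR-6744-5p, from an intron of the mucin gene MUC5B (chr11:1256605-1256670, plus strand), ranged from 6.32 to 11.2 CPM in total RNA and from 2.95 to 21.4 CPM in m7G-RIP. The groups overlapped for these 3 members, and their adjusted p-values in edgeR were 0.413, 0.242 and 0.536. Without m7G-RIP replicate 3 the log2 ratio of miR-6723-5p was -0.055 in place of 0.70, and that of miR-6744-5p was -0.50 in place of 0.54.

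The fitted log2 ratio was above 0 for 11 of 13 tested 5p members, with a median of 1.83, and for 9 of 12 tested 3p members, with a median of 1.18. The median over all 620 miRNAs tested was -0.07. Scaling by library size alone shifted the median of all miRNAs by 0.55 and raised the share enriched to 34.8%, with 22.7% depleted. Relative to the median of all miRNAs the tested members then lay 1.93 higher for the 5p arm and 1.23 higher for the 3p arm. With TMM the values were close, at 1.90 and 1.26. Of the tested members, 6 of the 5p arm and 3 of the 3p arm had passed the filter through m7G-RIP alone, and 0 through total RNA alone. The medians of tested members therefore give no direction for either arm as a whole. A filter that required 10 or more counts throughout kept 4 members per arm, with medians of 0.55 (5p) and -0.20 (3p). Over all 142 members, fitted without a filter, the medians were 1.29 for the 5p arm and 0.41 for the 3p arm, against -0.24 for all miRNAs with a summed count of at least 10. Members without counts in a whole group were also placed at their bound, or at a log2 ratio of 0 where the floor gave no bound. Of those without counts in m7G-RIP, only 4 of 9 (5p) and 1 of 16 (3p) had a bound. These medians were then 1.28 and 0.41. Members without counts in m7G-RIP stay at or below 0 either way, so this step could hardly move a positive median.

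**Figure D4:**
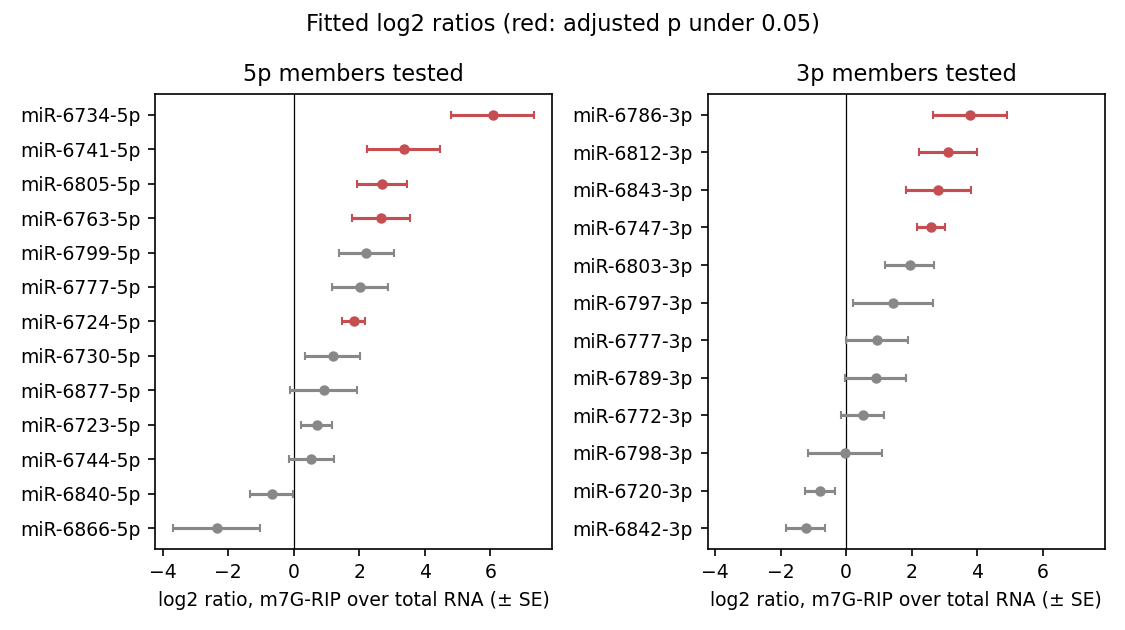
Fitted log2 ratio of m7G-RIP over total RNA (horizontal axis, ± SE) of the 13 tested 5p members (left) and 12 tested 3p members (right), in red where the edgeR adjusted p was under 0.05. The enriched members run from 1.83 for miR-6724-5p to 6.08 for miR-6734-5p, and the lowest ratios, -2.35 for miR-6866-5p and -1.24 for miR-6842-3p, did not pass the test.

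Levels that do not overlap can be counted for every member, tested or not. All m7G-RIP libraries lay above all total RNA libraries for 9 of 72 5p members and 7 of 70 3p members, where 17.5% of the 1098 miRNAs with a summed count of at least 10 did so. All m7G-RIP libraries lay below for 6 members of the 5p arm and 12 of the 3p arm, where 29.6% of those miRNAs did so. Both kinds were below the share among all miRNAs, and most members, 57 of the 5p arm and 51 of the 3p arm, overlapped between the groups.

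The third question was whether the arms of the members were recovered alike. The log2 ratio of summed 5p to summed 3p counts was 0.30, 0.32 and 0.37 in total RNA and 0.98, 0.33 and 0.76 in m7G-RIP. Replicate 2 of m7G-RIP lay within the range of total RNA, so the groups overlapped, and the means of 0.33 ± 0.04 and 0.69 ± 0.33 (SD, n = 3) differed by 0.36. Without replicate 2 of m7G-RIP the difference was 0.54 and without replicate 1 it was 0.22. For members with a summed count of at least 50 it was 0.18.

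The 32 hairpins with both arms among the members compare the arms within the same precursors. Their 5p arms summed to 188, 210 and 271 counts and their 3p arms to 310, 251 and 319 counts in total RNA. In m7G-RIP the 5p arms summed to 228, 295 and 373 counts and the 3p arms to 110, 175 and 234 counts. The 3p arms thus held more counts in every total RNA library and the 5p arms in every m7G-RIP library. The log2 ratio of 5p to 3p was -0.40 ± 0.27 in total RNA and 0.83 ± 0.20 in m7G-RIP (SD, n = 3), a difference of 1.23. This set was examined after its values were seen, and no test was made of a sum over members. Leaving out any single library gave differences from 1.07 to 1.31. Without the hairpins of the most abundant member of each arm, miR-6744 and miR-6720, the difference was 1.08, total RNA ranged from -0.40 to 0.10 and m7G-RIP from 0.58 to 1.24. The groups still did not overlap, but the 5p arms then held more counts in 1 total RNA library too, replicate 2 with 148 against 138 counts.

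**Figure D5:**
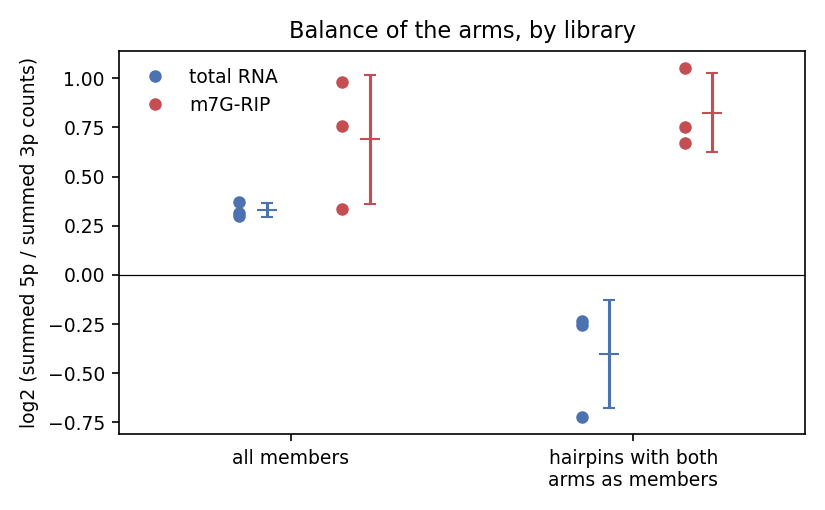
log2 ratio of summed 5p to summed 3p counts (vertical axis) in each library, for all 142 members and for the 32 hairpins with both arms as members, with means and SD beside the points. The groups overlap for all members, while for the 32 hairpins total RNA lies between -0.72 and -0.24 and m7G-RIP between 0.67 and 1.05.

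Single hairpins were too sparse to carry this comparison. The 5p arm had the larger count in 13 of the 32 hairpins in total RNA and in 19 in m7G-RIP. Only miR-6777, from an intron of SREBF1 (chr17:17813480-17813545, minus strand), a regulator of lipid synthesis, had both arms past the filter. Its 5p arm had 5, 9 and 9 counts in total RNA and 8, 21 and 10 in m7G-RIP, and its 3p arm had 40, 26 and 47 counts and 2, 28 and 64 counts. The 5p arm lay higher in m7G-RIP in every library, while the 3p arm ranged from the lowest to the highest level of all libraries. The difference in log2 ratio between its arms was 1.08 (edgeR gene-level test with the hairpin as the gene, adjusted p = 0.492), and with 138 hairpins tested 44.9% were called. With no filter on counts, 2 of the 32 hairpins were called, miR-6857 and miR-6859, each with an arm at 0 in a whole group, and 7 had an unadjusted p under 0.05. Without the filter 14.2% of all 387 hairpins tested were called. These 2 were named after their values were seen.

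The next hairpins in order of their lesser arm show both patterns. In miR-6741 the 5p arm had 26 counts in total RNA and 109 in m7G-RIP, and the 3p arm had 25 and 11. In miR-6805 both arms had more counts in m7G-RIP, at 30 and 84 counts for the 5p arm and 7 and 23 for the 3p arm. In miR-6797, from an intron of the ribosomal protein gene RPS19 (chr19:41869627-41869698, plus strand), the 5p arm had 27 and 16 counts and the 3p arm 44 and 52. The 5p arm of miR-6851, from an intron of NOL6 (chr9:33467869-33467935, minus strand), had 7 and 28 counts and its 3p arm 24 and 24. In miR-6894, from an intron of KDM5C (chrX:53198889-53198945, minus strand), the arms had 13 and 16 and 15 and 17 counts. The total RNA libraries were deeper, so equal counts stand for a higher level in m7G-RIP.

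Sequence features were set beside the levels as a description. A motif of 4 runs of GG or longer, spaced by 1 to 7 of any base and read on the miRNA strand, was found in 20 of 58 5p members, 0 of 63 3p members and 7.13% of all 982 miRNAs with a sequence. It is a pattern of letters that can form a G-quadruplex, and runs of GGGG can be part of it. The 20 5p members with the motif summed to 43.0 ± 5.40 CPM in total RNA against 164 ± 65.6 CPM in m7G-RIP (SD, n = 3), and the 38 without it to 42.5 ± 11.7 CPM and 78.2 ± 21.1 CPM. Without miR-6724-5p, the other 19 with the motif summed to between 7.01 and 10.9 CPM in total RNA and between 40.8 and 48.9 CPM in m7G-RIP, a ratio of 4.88. For those without the motif the ratio was 1.84 and the groups overlapped, with 53.9 CPM in the lowest m7G-RIP library and 56.0 CPM in the highest total RNA library. Among the tested 5p members with a sequence, 2 of 4 with the motif and 3 of 7 without it were enriched, where 23.5% of all miRNAs tested were. Of the 25 tested members, 9 had passed the filter through m7G-RIP alone. These counts, and the correlations over tested members that follow, therefore only describe them. Over the 20 tested members with a sequence, Pearson's r between the log2 ratio and the share of G was 0.32 and Spearman's rho 0.35, and over all 557 tested miRNAs with a sequence they were 0.41 and 0.44, across miRNAs that share the same 6 libraries. The other bases gave values of like size in the 20 members, with Pearson's r of -0.36 for C and Spearman's rho of -0.38 for A.

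The long-known mirtrons miR-877, miR-1224 to miR-1229 and miR-1236 to miR-1238 give a point of reference. Of their 20 mature miRNAs, 8 were tested, 3 were enriched and 0 were depleted in edgeR or DESeq2, with 0 lower at an unadjusted p under 0.05. Among all miRNAs tested 23.5% were enriched and 29.2% were depleted in edgeR. The median log2 ratio of the 8 was 0.98. The enriched ones were miR-877-5p (log2 ratio 3.42), miR-1224-5p (2.20) and miR-1237-3p (2.07). The 3 tested of the 5p arm had a median of 2.20 and the 5 of the 3p arm a median of 0.65, beside 1.83 and 1.18 for the tested members. The medians of tested members carry the limit of the filter given above. Summed over those with at least 10 counts, 4 of the 5p arm had 56.6 CPM in total RNA against 514 CPM in m7G-RIP, a ratio of 9.07. The 6 of the 3p arm had 31.3 against 49.3 CPM, a ratio of 1.57. For the members these ratios were 2.67 and 2.06.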

How the data were processed

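Raw read counts of mature miRNAs were deposited by the authors for 3 total RNA and 3 m7G-RIP libraries, made with the NEBNext small RNA kit. Per the authors' methods, Trimmomatic removed adaptors, STAR aligned whole reads to GRCh38, and reads were assigned with featureCounts on miRBase mature miRNAs, while the submitters' processing notes name Bowtie2. How reads with several alignments were counted is not given in the sources used here, which bears on members with several loci. Reads carry no molecular identifiers, so intervals and floors cover counting error only.

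Differences were tested on the counts with edgeR 4.0.16 (R 4.3.3; TMM scaling, default filter by group, robust quasi-likelihood F test, Benjamini-Hochberg adjustment, threshold 0.05). Arm use within hairpins was tested with edgeR's diffSpliceDGE. Groups and replicate numbers came from the sample titles. The code was tested on simulated counts. Replicate libraries differed by more than sampling noise and were kept separate. The members and lists were chosen with earlier results of these data known. Named miRNAs were the 6 largest and 6 smallest called ratios of each arm, the 4 most abundant of each arm in each group, and the 6 hairpins with the highest count in the lesser arm. Alternatives covered scaling, filters, DESeq2 1.42.0, a replicate block, a summed count of at least 50 and leaving out each library. Sequences came from RefSeq and hairpin positions from GENCODE release 44.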

Additional observations from a re-analysis of the deposited data

How the results depend on the processing

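At low counts the number of enriched members moved with the filter and the scaling. It was 5 for the 5p arm and 4 for the 3p arm as reported. With library size alone it was 8 for the 5p arm, at medians of 2.41 and 1.71 for the arms. With at least 10 counts in every library it was 1 in each arm, 1 member of the 3p arm was depleted, and the medians were 0.55 and, turned in sign, -0.20, with 4 members tested in each arm. With no filter 1 member of the 5p arm was depleted, 2 hairpins differed in arm use and the medians were 1.29 and 0.41. With the replicate block 3 and 2 members were enriched. miR-6763-5p, miR-6805-5p, miR-6786-3p and miR-6843-3p were not called with the block (adjusted p in edgeR 0.173, 0.0613, 0.0529 and 0.102) nor with no filter. The paper's protocol sets the input aside from the RNA used for precipitation, so same-numbered libraries may be pairs. Deviations of same-numbered libraries correlated at -0.04, -0.10 and 0.07. These values do not exclude pairs, and the main test treated the samples as unpaired. The block left the medians at 1.70 and 0.86 and the changes in arm balance at 0.36 and 1.23. Leaving out each library gave from 2 to 7 enriched and from 0 to 3 depleted members of the 5p arm, from 2 to 6 and from 0 to 3 of the 3p arm, and medians from 1.17 to 2.29 and from 0.94 to 1.61. Without m7G-RIP replicate 3 the log2 ratios of miR-6723-5p, miR-6744-5p, miR-6777-3p and miR-6797-3p turned to -0.055, -0.50, -0.24 and -0.21, and without the other libraries they reached up to 0.95, 0.81, 1.31 and 1.82. Apart from fewer or other members tested, the causes were not tested. In each group most of the members' values were under 5 counts, and pairs of replicates differed at a chi-square per degree of freedom between 22.2 and 112.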
